A study of Mus musculus with 8 samples.

Results

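The comparison described here is the second interval of an induction: 3 libraries taken 12 h after doxycycline was added (12 h A, B and C) against 2 libraries taken after 6 h (6 h A and B), which together make 5 of the 8 libraries of the series. They were chosen by their titles, and all CpG calls of both kinds (undeaminated and deaminated) were used. The cells were mouse embryonic stem cells in which TET1, TET2 and TET3 are inactivated. They carry a PiggyBac transposon vector from which doxycycline induces the catalytic domain of mouse TET3, linked in transcription to an mCherry reporter. The 6 h and 12 h groups received 1 µM doxycycline, and the other 3 libraries (0 h A, B and C) came from the same cells without it and give the background. Ascorbate at 50 µg/ml was in the medium. All libraries came from 1 rescued line, the enzyme is a domain and not the whole protein, and the labels do not say whether the replicates were separate cultures, so spread between replicates may be technical. Whether each library's cells carried the genotype cannot be checked from CpG calls, which hold no expression.

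TET enzymes oxidise 5-methylcytosine, the methyl mark that DNA methyltransferases place mostly on CpG cytosines, to 5-hydroxymethylcytosine (5hmC). The product is an intermediate on the way to unmodified cytosine and, in stem cells, is also a mark in its own right, found mainly in gene bodies and distal elements and little in CpG-rich promoters. In APOBEC-coupled epigenetic sequencing a sugar shields 5hmC from an enzyme that deaminates cytosine and 5-methylcytosine, so an undeaminated CpG call is read as 5hmC or as a failure of deamination. A call is 1 CpG on 1 read, and a level is the percentage of calls that were undeaminated.

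The whole-library level was 6.57% in 6 h A and 6.27% in 6 h B, and 22.3%, 23.3% and 26.8% in 12 h A, B and C. The lowest 12 h library was above both 6 h libraries, and the 12 h libraries were more spread (24.1% ± 2.36, SD, n = 3) than the 6 h libraries (6.42% ± 0.212, SD, n = 2). Without doxycycline the level was 0.899%, 1.23% and 1.26%, and their mean of 1.13% is the background subtracted below. Above that background the level stood at 5.29 points after 6 h and 23.0 points after 12 h, a factor of 4.35, with 3.90 and 5.00 as the lowest and highest of the 6 possible pairs of libraries. The two-sided exact permutation test of the levels gave p = 0.2, the smallest value that 3 against 2 libraries allow. Within the 3 sequencing runs the factor was 4.54, 4.27 and 4.41. The libraries held 75023 (6 h A) to 485941 (12 h B) calls, and 95% Wilson intervals of the 5 levels, which cover counting error only, lay within 6.18 to 6.75% at 6 h and 22.2 to 27.0% at 12 h.

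If every region grew by this 1 factor, its level relative to the whole library would be the same at both times. The relative level used throughout is therefore the level of a region or read class above background, divided by the level of its whole library above background. It was compared between 12 h and 6 h with limma, with p adjusted over each family of regions and called under 0.05. The fit shares variances over all features of a family. These are parts of the same 5 libraries and not independent, so p and intervals may be too small in families of few classes. Gains in points, by contrast, carry the rise of the whole library. All 7 read classes (100%), 8 of 9 compartments (88.9%) and 1358 of 1380 windows of 1 Mb (98.4%) gained in limma's fit, and these gains are not independent of one another.

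Promoter windows were grouped by their number of CpGs, and 1 of each class is printed so that the difference in CpG content can be seen. They run from 250 bases before to 50 after a gene's start, are RefSeq sequences of GRCm38.p6 written 5′ to 3′ along the gene, and have each CpG in capitals. The window printed is the one with the most calls of its class on the chromosomes from which sequence is shown. The classes of 0-4, 5-9, 10-19 and 20 or more CpGs per window held 12495, 6064, 5574 and 8684 of the 32817 windows. The windows are those of 4933425B07Rik (4 CpGs, chr14:46637374-46637673, minus strand), Gm34515 (9 CpGs, chr10:84572261-84572560, plus strand), Chst13, a carbohydrate sulfotransferase gene (14 CpGs, chr6:90325136-90325435, minus strand), and Tex30 (38 CpGs, chr1:44102392-44102691, minus strand).
4933425B07Rik: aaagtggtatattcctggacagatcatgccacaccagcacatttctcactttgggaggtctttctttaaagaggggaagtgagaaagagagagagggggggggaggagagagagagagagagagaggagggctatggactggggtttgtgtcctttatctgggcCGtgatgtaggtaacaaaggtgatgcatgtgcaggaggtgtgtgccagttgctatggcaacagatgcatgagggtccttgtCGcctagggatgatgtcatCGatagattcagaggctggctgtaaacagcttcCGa
Gm34515: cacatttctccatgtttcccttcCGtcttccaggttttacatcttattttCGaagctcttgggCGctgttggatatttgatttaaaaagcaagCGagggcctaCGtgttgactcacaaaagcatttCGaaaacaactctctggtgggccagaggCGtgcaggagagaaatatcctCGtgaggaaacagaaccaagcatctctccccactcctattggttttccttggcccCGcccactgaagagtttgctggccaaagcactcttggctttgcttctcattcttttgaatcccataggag
Chst13: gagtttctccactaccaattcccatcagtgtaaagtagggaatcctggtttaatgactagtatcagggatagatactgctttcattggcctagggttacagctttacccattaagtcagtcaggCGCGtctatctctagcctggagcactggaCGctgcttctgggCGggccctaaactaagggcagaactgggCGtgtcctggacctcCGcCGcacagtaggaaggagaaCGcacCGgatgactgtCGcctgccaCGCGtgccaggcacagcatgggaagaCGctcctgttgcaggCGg
Tex30: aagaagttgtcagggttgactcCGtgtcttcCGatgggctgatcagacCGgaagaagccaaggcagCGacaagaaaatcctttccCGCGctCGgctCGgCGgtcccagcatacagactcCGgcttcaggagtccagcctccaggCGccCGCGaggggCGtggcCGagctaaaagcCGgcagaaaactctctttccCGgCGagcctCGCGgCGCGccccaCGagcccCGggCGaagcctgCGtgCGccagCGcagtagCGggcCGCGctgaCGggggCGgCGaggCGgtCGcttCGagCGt

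Single windows held few calls, often from 1 library. In the window of Tex30 0 of 61 calls were undeaminated after 12 h, which allows a level of up to 4.92% (3 counts of the total), and there were no calls after 6 h. In that of Chst13 5 of 16 calls (31.3%) were undeaminated after 6 h, all from 6 h B, and 0 of 11 after 12 h, all from 12 h C, which allows up to 27.3%. The window of 4933425B07Rik had 0 of 3 and then 3 of 3 undeaminated calls, and that of Gm34515 0 of 7 and then 1 of 6. Summed over a class, windows with 20 or more CpGs stood at 1.87% and 1.05% after 6 h and at 1.82%, 2.68% and 5.21% after 12 h, beside 1.28% at 0 h. The highest was 12 h C, and the relative level of the 5 libraries ran from -0.0162 to 0.159.

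Windows with 0-4 CpGs stood at 4.11% and 5.26% after 6 h and at 28.4%, 27.7% and 33.9% after 12 h. Relative to the library this was 0.548 and 0.805, then 1.29, 1.20 and 1.28, so the 12 h libraries were all above the 6 h ones. Windows with 5-9 CpGs went the other way, with relative levels of 1.27 and 1.40 after 6 h and of 1.10, 0.923 and 0.783 after 12 h. Neither difference passed limma's test over the 4 classes. The change was 0.492 ± 0.261 (SE) for 0-4 CpGs and -0.417 ± 0.271 for 5-9 CpGs, both with an adjusted p of 0.278, and 0 of 4 classes were called in either direction (0%). The base before or after the CpG, read in windows with fewer than 10 CpGs, gave 0 of 4 calls each, with levels after 12 h between 14.6% (T before the CpG, 12 h C) and 33.5% (A before it, 12 h C).

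Reads were next grouped by how many CpG calls they carry, a measure of local CpG density that needs no annotation. Reads with 1 call had relative levels of 0.993 and 1.01 after 6 h and of 1.04, 1.03 and 1.04 after 12 h, a factor of 4.52. Reads with 2 calls grew by 4.42 and reads with 3 calls by 4.22. The class that changed was reads with 4-5 calls, the richest in 5hmC at 6 h. Its level was 7.52% and 7.25% after 6 h and 24.8%, 25.4% and 28.8% after 12 h, so that its relative level was 1.18 and 1.19, then 1.12, 1.10 and 1.08. All 12 h libraries lay below both 6 h libraries, and the change was -0.0882 ± 0.0263 (SE), 95% interval -0.143 to -0.0335, with an adjusted p of 0.0211 in limma. It was the only class of 7 called lower (14.3%), and 0 were called higher. Its factor was 4.03.

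Reads with 8-10 calls had relative levels of 0.915 and 0.836 after 6 h and of 0.723, 0.710 and 0.752 after 12 h, again without overlap, and the smallest factor of the 7 classes at 3.62. The change of -0.131 ± 0.0510 (SE) did not pass, with limma's adjusted p at 0.0640. Reads with 11 or more calls stayed low at both times (0.203 and 0.171, then 0.182, 0.202 and 0.258), and reads with 6-7 calls were near the library level (1.07 and 0.965, then 0.994, 1.02 and 1.01). In both of these classes the groups overlapped. At both times levels were highest at 3 to 5 calls and lowest at 11 or more.

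The call for reads with 4-5 CpGs rests on few libraries. Its test shares variances over the 7 classes, whereas an exact test of 3 against 2 libraries cannot go below p = 0.2. It was lost on leaving out 6 h A, 6 h B or 12 h B, with estimates between -0.0974 and -0.0754 over the 5 libraries left out in turn, and lost on the log2 and logit scales, while its direction stayed the same in all of these. With a 6 h library left out, the spread comes from the 12 h libraries alone. The log2 and logit fits subtracted no background. Within the runs the change was -0.169 (limma adjusted p = 0.0338), -0.109 (0.0322) and -0.0532 (0.671).

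**Figure D1:**
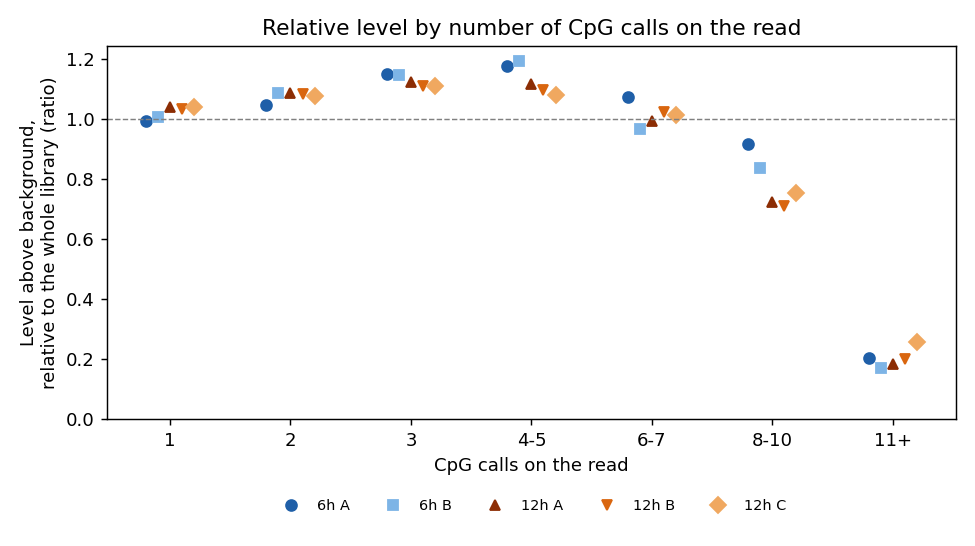
Relative level (level above background over that of the whole library, a ratio) for reads with 1 to 11 or more CpG calls, 1 symbol for each of the 2 libraries at 6 h (blue) and 3 at 12 h (orange). The dashed line marks the library level. Symbols of both times follow 1 curve, with the 12 h libraries below both 6 h libraries at 3, 4-5 and 8-10 calls and above them at 1 call.

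Compartments came from gene spans of the GRCm38.p6 gene table, each call counted once. Gene ends, within 1 kb of either end of a protein-coding gene, are where promoters and their CpG islands lie. Their level was 3.80% and 3.59% after 6 h and 10.9%, 11.7% and 14.0% after 12 h. Relative to the library this was 0.491 and 0.480, then 0.461, 0.475 and 0.502, so the 6 h values lay within the range of the 12 h values. The change was -0.00667 ± 0.0292 (SE), with a 95% interval of -0.0792 to 0.0659 (limma adjusted p = 0.827), and the factor was 4.31. A logit fit compares odds and not levels, and here it also subtracted no background. In that fit gene ends were lower at 12 h (-0.255, adjusted p = 7.73e-06 in limma). How much of this came from the background was not tested.

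Protein-coding gene bodies were at 1.12 in both 6 h libraries and at 1.12, 1.10 and 1.10 after 12 h, a factor of 4.30. Intergenic calls grew by 4.29 and bodies of long noncoding RNA genes by 4.52. Those of other genes, such as pseudogenes and small RNAs, had 0.669 and 0.770 after 6 h and 0.869, 0.920 and 0.970 after 12 h. Over the 9 compartments 0 were called in either direction (0%). Relative levels did not overlap in 5 with 12 h higher (55.6%) and in 3 with 12 h lower (33.3%), in some of them narrowly.

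The X chromosome had relative levels of 1.06 and 1.11 after 6 h and of 0.947, 0.984 and 1.01 after 12 h, and the lowest factor among the compartments with a positive level, 3.94. The Y chromosome had 0.427 and 0.682, then 0.922, 0.932 and 1.13, with a factor of 7.92, and unplaced contigs 0.806 and 0.526, then 0.864, 0.977 and 0.887. Their adjusted p in limma was 0.254 each, and intervals were wide, from -0.152 to 0.824 on the Y. The mitochondrial genome, which is kept apart from nuclear DNA, was at 0.769% and 0.377% after 6 h and at 1.10%, 1.26% and 2.23% after 12 h, beside 0.301% without doxycycline. It was the compartment whose gain did not pass.

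Distance from gene ends gave a smooth curve. Within 0.5 kb of an end relative levels were 0.420 and 0.357 after 6 h and 0.347, 0.380 and 0.398 after 12 h. From 0.5 to 1 kb they were 0.618 and 0.717, then 0.658, 0.632 and 0.684, and from 2 to 5 kb all 5 libraries were above 1. The groups overlapped in all 8 distance classes and 0 of 8 changed (limma, smallest adjusted p = 0.986). On the log2 and logit scales the class within 0.5 kb was lower at 12 h (-0.27, adjusted p = 0.00778, and -0.322, adjusted p = 1.86e-06, both in limma), against a change of 0.000689 on the ratio scale. The log2 and logit fits subtracted no background, so they differ from the ratio scale in more than the scale. On the ratio scale without background subtraction the change was -0.0814. How much the background contributed was not tested. The factors of the 8 classes lay between 4.21 and 4.41. Widest among the 8 intervals was that from 0.5 to 1 kb, -0.178 to 0.0914.

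**Figure D2:**
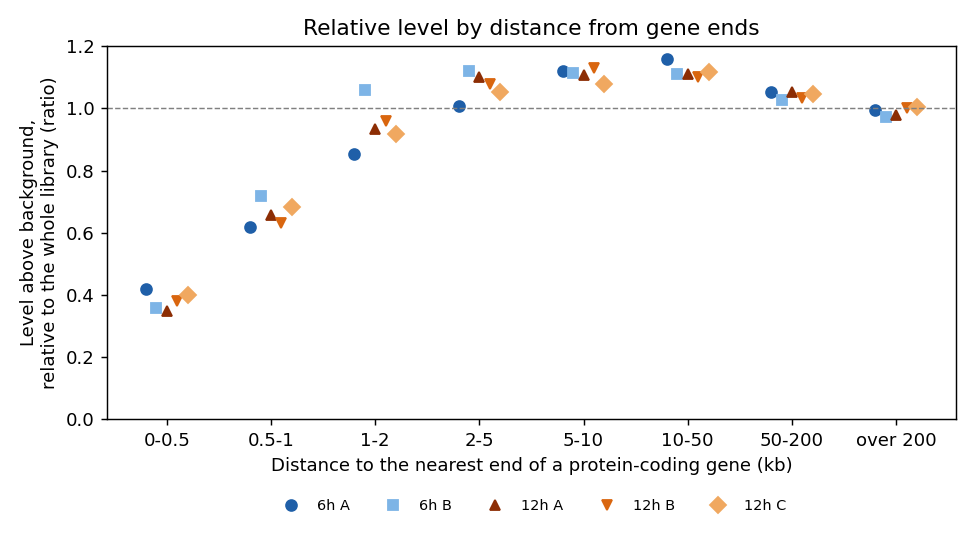
Relative level (ratio to the whole library, above background) by distance to the nearest end of a protein-coding gene in kb, 1 symbol per library, blue at 6 h and orange at 12 h. Both times show a dip, from 1.08 to 1.16 at 5 to 50 kb down to 0.347 to 0.420 within 0.5 kb, with overlapping groups in every class.

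Position and CpG number were then crossed. Of the 14 combinations 13 gained in points (92.9%), 3 were lower at 12 h in limma's test (21.4%) and 0 were higher. Away from ends, reads with 8-10 calls had relative levels of 1.25 and 1.12 after 6 h and of 0.948, 0.967 and 0.997 after 12 h, a change of -0.186 ± 0.0528 (SE, adjusted p = 0.0192). After 6 h these reads were above their library, after 12 h below it, and the groups did not overlap. Reads with 4-5 calls away from ends changed by -0.0903 ± 0.0263 (adjusted p = 0.0192, limma). Near ends, reads with 3 calls had 1.08 and 1.22, then 0.939, 0.932 and 0.940, a change of -0.246 ± 0.0870 (limma adjusted p = 0.0496). None of the 14 were called on leaving out 6 h A, 6 h B or 12 h B. Reads with 11 or more calls near ends, the nearest to CpG islands, had 0.147 and 0.0811, then 0.0769, 0.107 and 0.173.

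Gene length and gene density were read in the same way. Bodies under 10 kb were at 0.485 and 0.684, then 0.678, 0.684 and 0.716, while bodies over 200 kb were at 1.10 and 1.03, then 1.05, 1.05 and 1.06. Windows of 1 Mb with no protein-coding gene were at 0.938 and 0.970, then 0.960, 0.975 and 0.988, and those with 16 or more at 0.986 and 1.02, then 0.991, 0.986 and 0.971. Of 4 length classes and 4 density classes 0 changed (0%), with factors from 4.21 to 5.19 and from 4.22 to 4.49.

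Of 21 chromosomes 0 changed past the threshold (0%). Chromosome 17 came nearest, at 0.703 and 0.769 after 6 h and at 0.917, 0.914 and 0.961 after 12 h, where the 12 h libraries were all higher and closer to 1. Its change was 0.170 ± 0.0430 (SE, limma adjusted p = 0.0826) and its factor 5.52. Windows of 10 kb with 200 or more calls over all libraries, called high-copy windows here, held 18.2% and 11.6% of the calls of chromosome 17 at 6 h and 10.6%, 9.60% and 6.72% at 12 h. Without them the change was 0.142 (adjusted p = 0.0728). With 1 call drawn per read the change was 0.172 and passed (limma adjusted p = 0.0399).

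Calls were also counted by how they were grouped on reads. A read can gain either by acquiring its first undeaminated call or by acquiring more. Among reads with 4-5 CpG calls, 23.4% and 22.1% carried at least 1 undeaminated call after 6 h and 57.7%, 58.7% and 63.4% after 12 h, beside 3.08% without doxycycline. The share above that background grew by 2.89. In the same reads the number of undeaminated calls per such read was 1.40 and 1.42, then 1.86, 1.88 and 1.97. Its factor of 1.35 has no background subtracted, unlike that of the share. Without doxycycline the number was 1.54, above both 6 h libraries. How much background reads raised the 6 h values was not tested. The 12 h libraries were above both 6 h libraries in both measures. The share grew by 4.51 in reads with 1 call, where it is the level itself, by 3.34 with 3 calls and by 2.29 with 8-10 calls. The number per such read grew by 1.22 with 3 calls and by 1.52 with 8-10 calls, again without background subtraction. Without doxycycline it was 1.34 and 2.08 in these classes, above both 6 h libraries. Each of these exact permutation tests gave p = 0.2 (two-sided, the smallest possible, 0.2 also after adjustment over classes).

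Counts of undeaminated calls on reads with the same number of CpGs show this in full. Of reads with 4 calls, 15.8% and 14.9% had exactly 1 undeaminated after 6 h, and 26.7%, 27.8% and 27.8% after 12 h. Reads with 3 of 4 made 1.54% and 1.09%, then 8.79%, 9.69% and 10.9%. The level of the whole library grew by 4.35. Above background, reads with 1 of 4 grew by 1.91 and reads with 3 of 4 by 8.66. Relative to the library the first fell (2.52 and 2.51, then 1.16, 1.16 and 1.00, limma adjusted p = 0.00557) and the second rose (0.245 and 0.171, then 0.405, 0.427 and 0.416, adjusted p = 0.00733). Of 20 such patterns on reads with 2 to 6 calls, 6 rose (30%) and 6 fell (30%) in limma's test. On reads with 2 calls, 2 of 2 grew by 8.64 and 1 of 2 by 3.26. On reads with 6 calls 4 of 6 grew by 13.7 and 1 of 6 by 1.40. The factor for 4 of 6 rests on few reads, 4 in 6 h A and 12 in 6 h B, beside 2, 1 and 0 at 0 h. The patterns are shares of the same reads and not independent. These counts rest on 6 h B, by far the deeper library of its time: without it 0 rose and 0 fell, and with another library left out 3 to 8 rose and 5 to 7 fell.

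The fall of 1 of 4 and the rise of 3 of 4 relative to the library follow from arithmetic. The share of reads with 1 undeaminated call cannot keep pace with a rising level, and that of reads with 3 must outgrow it if calls are independent. The tests above and the counts of patterns that rose or fell therefore do not by themselves show a change in grouping. If calls on a read were independent at the level of their class, reads with 1 of 4 would have grown by 1.82 without background subtraction, and they grew by 1.79. Reads with 3 of 4 would have grown by 39.7 and grew by 7.43. Those with 2 of 4 would have grown by 8.47 and grew by 4.46. After 6 h reads with 3 of 4 were 9.42 times as frequent as under independence, and after 12 h 1.77 times, where control libraries had 0.228% of such reads. Calls were thus grouped on reads at both times, and the ratio to independence was lower after 12 h. The highest value this ratio can take falls as the level rises. Its fall alone therefore does not measure a change in grouping. Reads with all 4 undeaminated made 0.241% and 0.360% at 6 h, within the 0.112 to 0.521% of the control libraries, and 2.44%, 2.85% and 3.85% at 12 h. Such reads were therefore not detectable above background after 6 h, and no factor is given.

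**Figure D3:**
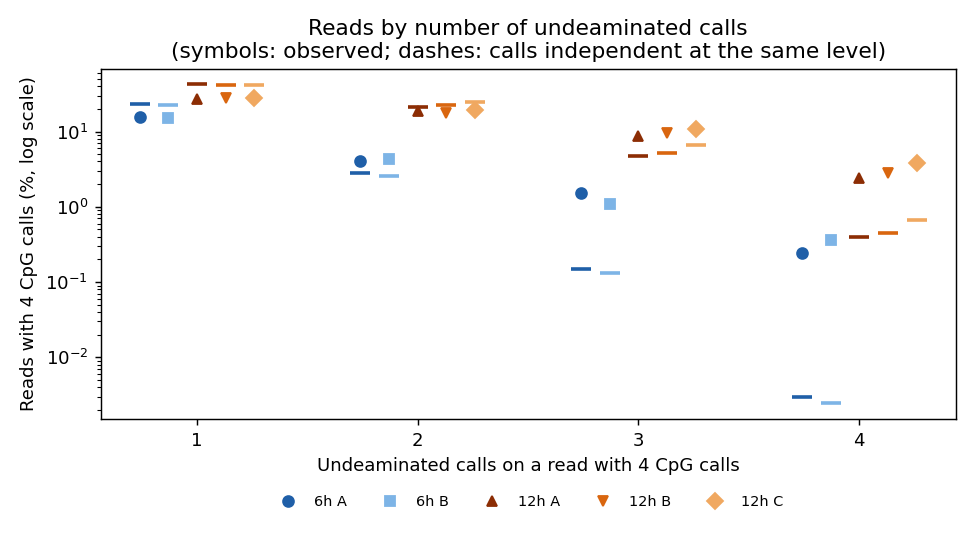
Percentage of reads with 4 CpG calls (log scale) that had 1, 2, 3 or 4 undeaminated calls, 1 symbol per library, blue at 6 h and orange at 12 h. Dashes give the percentage for independent calls at the same level: reads with 3 and 4 undeaminated calls lie above their dashes in all 5 libraries, by more at 6 h (9.42 times for 3 of 4) than at 12 h (1.77 times). The highest possible ratio falls as the level rises.

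Neighbouring CpGs on a read were compared by their distance. For pairs up to 10 bp apart both were undeaminated in 1.84% and 1.61% after 6 h and in 8.0%, 9.02% and 11.5% after 12 h, a factor of 7.99 above background where the level of the same calls grew by 4.44. Pairs 51-100 bp apart grew by 9.41 and their calls by 4.28. A share of pairs grows with about the square of the level if calls are independent, so it must rise relative to the level when the level rises, and its rise in all 5 distance classes (100%) says nothing of its own. The square of the library factor is 18.9, and the factors of the 5 classes, 7.43 to 14.2, were below it.

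Read the other way, a CpG within 10 bp of an undeaminated CpG was itself undeaminated in 32.2% and 31.0% of cases after 6 h and in 44.6%, 46.5% and 50.7% after 12 h. This conditional level rose, but much less than the library level, from 4.91 and 4.95 times the library level to 2.00, 1.99 and 1.89 times (limma adjusted p = 1.76e-09). It fell relative to the library in 4 of 5 distance classes (80%), and in 3 of them without 6 h B. Beyond 100 bp the groups overlapped (1.16 and 2.57, then 1.63, 1.51 and 1.40) and the adjusted p was 0.342. A ratio of this kind has a ceiling that falls as the level rises, since no conditional level can pass 100%. For pairs up to 10 bp the mean ceiling, counted over the level of the paired calls, was 18.4 at 6 h and 5.05 at 12 h.

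The odds ratio, which has no such ceiling, was 11.3 ± 0.222 (SD, n = 2) at 6 h and 5.94 ± 0.136 (SD, n = 3) at 12 h for pairs up to 10 bp. It was 6.91 ± 0.514 and 3.69 ± 0.148 at 11-25 bp, 5.35 ± 0.191 and 2.83 ± 0.0536 at 26-50 bp, and 3.86 ± 0.0437 and 2.15 ± 0.0508 at 51-100 bp. In these 4 classes all 3 libraries of 12 h were below both of 6 h. At both times it fell with distance, and beyond 100 bp it was 2.06 ± 1.44 and 2.09 ± 0.218, where the 6 h libraries were far apart. Reads on which deamination failed add pairs at both times, 0.606% of pairs up to 10 bp without doxycycline. The odds ratios have no background subtracted, and for these pairs they were 138, 311 and 131 in 0 h A, B and C. With that background taken off, the share of pairs with both undeaminated over the square of the level was 6.21 at 6 h and 2.52 at 12 h. This ratio again has a ceiling that falls as the level rises. No measure here is free of both limits, so a change in grouping was not settled.

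**Figure D4:**
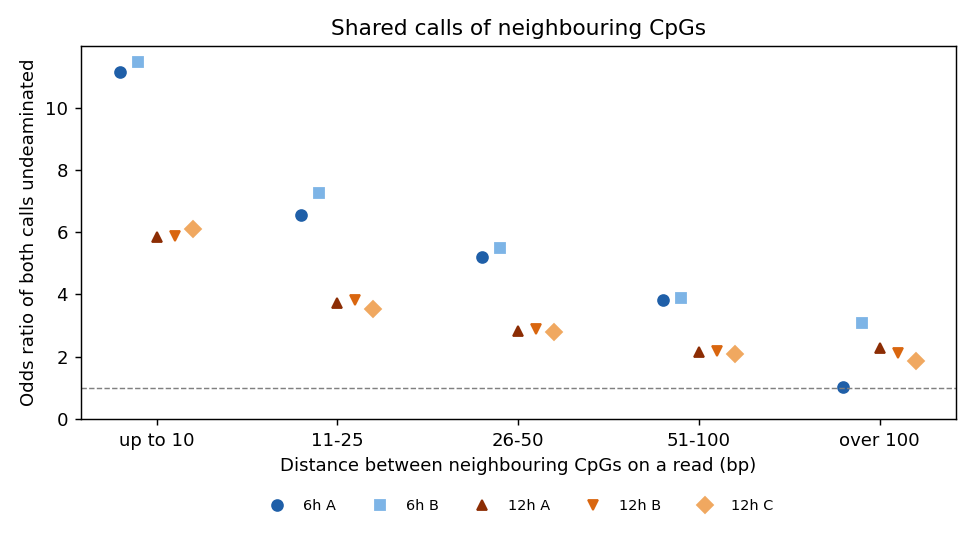
Odds ratio that both of 2 neighbouring CpGs on a read are undeaminated, by their distance in bp, 1 symbol per library, blue at 6 h and orange at 12 h; the dashed line at 1 marks independent calls. Up to 100 bp all 12 h libraries lie below both 6 h libraries, and the odds ratio falls with distance at both times. No background was subtracted.

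Single genes were fitted where every 6 h and 12 h library held at least 10 calls in the gene's span, which left 762 genes. Of these 585 gained (76.8%) and 0 lost in limma's test, with a median gain of 18.1 points. Without 6 h B, with 6 h A alone at 6 h, 103 gained, and without another library 398 to 549. Relative to the library 0 changed in either direction (0%), and at an unadjusted p under 0.05 there were 7 higher and 18 lower. Leaving out 6 h A or 6 h B gave 3 and 8 genes lower, but the 6 h group is then 1 library whose spread is taken from the 12 h libraries, so these counts show no change of single genes. Groups did not overlap in 167 genes with 12 h higher (21.9%) and in 95 with 12 h lower (12.5%). The depth bounds what could be seen: the 95% interval of a gene's change reached a median of 1.61 to either side and that of a 1 Mb window 0.857, where 1 is the level of the library itself. A change of relative level smaller than these was not detectable for most single genes or windows at this depth.

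The genes named next had the largest changes among those without overlap, and none passed the threshold (adjusted p = 0.956 in limma for each). In the higher direction 5 genes had no undeaminated call at 6 h. Sergef, which encodes a secretion regulator (chr7:46443159-46642896), had 0 of 14 and 0 of 55 calls undeaminated at 6 h, and 24 of 73, 21 of 71 and 19 of 36 at 12 h. Banp, a DNA-binding protein of the nuclear matrix (chr8:121947972-122029260), had 0 of 13 and 0 of 22, then 12 of 48, 24 of 52 and 14 of 22. For Sergef the 69 calls at 6 h allow a level of up to 4.35%, and for Banp the 35 allow up to 8.57%, which takes in the library level. The others were 4930402H24Rik (0 of 53 calls at 6 h), the receptor phosphatase gene Ptprb (0 of 34) and the coiled-coil gene Ccdc60 (0 of 46). In all, 52 of the 762 genes had no undeaminated call at 6 h.

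In the lower direction stood Nrip1, a corepressor of nuclear receptors (chr16:76287403-76373827), with 1 of 10 and 8 of 25 calls undeaminated at 6 h and 4 of 33, 12 of 47 and 5 of 42 at 12 h. Its pooled level went from 25.7% to 17.2%, and its change of relative level was -4.0 ± 1.07 (SE). Ankrd6, an ankyrin repeat protein of Wnt signalling (chr4:32804027-32950885), had 6 of 17 and 2 of 13, then 10 of 58, 17 of 45 and 11 of 36, so that 26.7% of calls were undeaminated at 6 h and 27.3% at 12 h. The other 3 were Gm30366, a long noncoding RNA (27.3%, then 50.0%), Unc5d, a netrin receptor gene (17.6%, then 19.2%), and Ube4b, a ubiquitin ligase gene (19.4%, then 29.0%). All 5 were above the library level at 6 h.

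Gene lists by function are described by their pooled calls, and by how many of their members gained beside the 76.8% of all genes. Of 18 lists 10 had fewer than 100 calls in at least 1 library. Over the 18 lists 104 members were tested singly, 86 gained (82.7%) and 0 changed relative to the library. Their median gain was 16.1 points, against 18.1 over all genes tested. Protocadherins made up 27 of the members tested and 26 of the gains. Most of these overlap and share calls, so the 82.7% does not count separate genes. Very long genes of neuronal type held the most calls per gene: 20 of 23 gained. Cdh13, a cadherin, went from 19 of 269 (7.06%) to 219 of 933 (23.5%), Wwox, an oxidoreductase gene at a fragile site, from 19 of 209 to 180 of 742, and Auts2, a neurodevelopmental gene, from 11 of 181 to 142 of 594. Pooled, the 30 genes of this list went from 6.97% to 23.2%.

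Among solute carriers 9 of 10 gained, with Slc39a11, a zinc transporter, going from 10 of 146 to 112 of 491. Of 11 potassium channel genes tested 8 gained, and Kcnma1 went from 13 of 110 to 65 of 301 while Kcnh1 went from 7 of 100 to 64 of 246. Of 11 protein tyrosine phosphatase genes 9 gained. Ptprt went from 13 of 111 (11.7%) to 110 of 419 (26.3%) and Ptprm from 5 of 106 (4.72%) to 110 of 386 (28.5%), with changes of relative level of -0.93 and 0.54 that did not pass (limma adjusted p = 0.956 each). Of 6 glutamate receptor and partner genes 4 gained, with Grip1 at 4 of 100 and then 105 of 368. Of 8 zinc finger genes 5 gained, with Zfp536 at 2 of 110 and then 112 of 369. Protocadherins gave 26 of 27, but most of these are overlapping genes of 1 cluster that share their calls.

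Genes that bear on the stem cell and on the mark itself were covered thinly. Esrrb, whose product is an orphan nuclear receptor that helps keep stem cells pluripotent, went from 5 of 76 to 40 of 163. Nr5a2, a related receptor gene, went from 2 of 43 to 25 of 118, and both gained. The third pluripotency gene by calls, Gbx2, went the other way, from 1 of 5 to 3 of 69, and was not tested. Pooled, this list went from 21 of 237 to 141 of 675, but its 6 h libraries were far apart, with relative levels of 3.09 and 0.637. In the DNA methylation machinery Dnmt3a, a de novo methyltransferase gene, went from 3 of 59 to 30 of 94, Dnmt1, the maintenance methyltransferase gene, from 2 of 40 to 17 of 74, and Tet3 from 5 of 52 to 33 of 125. Too few calls per library kept these 3 from the test. Among imprinted genes Kcnq1 went from 9 of 68 to 54 of 206, Igf2r from 3 of 34 to 28 of 112 and Gnas from 1 of 62 to 10 of 80. Of chromatin enzyme genes Arid1b went from 4 of 94 to 73 of 266 and Hdac9 from 6 of 73 to 31 of 215, of which the first gained and the second did not pass.

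The 4 lists with the lowest pooled levels at 12 h follow. All lists of this paragraph were under the minimum of 100 calls in at least 1 library, so their levels are uncertain. The fewest calls in a library were 57 for Hox clusters, 31 for large ribosomal proteins, 33 for housekeeping genes and 50 for early lineage regulators. They were 67 for small ribosomal proteins, 25 for germline genes and 47 for olfactory receptors. Hox clusters, homeobox genes that pattern the body axis, went from 8 of 243 calls (3.29%) to 73 of 682 (10.7%). The large ribosomal proteins went from 10 of 267 (3.75%) to 42 of 518 (8.11%), with 9.43%, 2.69% and 15.9% in the 12 h libraries. Housekeeping genes went from 4 of 111 (3.60%) to 44 of 327 (13.5%), and early lineage regulators from 7 of 186 (3.76%) to 105 of 617. Libraries differed within these pools. Housekeeping genes stood at 8.39%, 14.6% and 28.6% in the 12 h libraries, and early lineage regulators at 8.0% and 2.21% at 6 h. The list of small ribosomal proteins, 18 of 304 and then 169 of 865, was matched by name prefix and its 3 deepest members, Rps6kc1, Rps6ka2 and Rps6ka1, are S6 kinase family genes. Germline genes went from 5.41% (8 of 148) to 23.3% (121 of 520) and olfactory receptors from 4.68% (11 of 235) to 22.9% (182 of 796).

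Windows of 1 Mb gave the widest view, limited to those with at least 20 calls in each 6 h and 12 h library. Their coverage was uneven, from 22 to 61 calls per library at chr6:9000000-9999999 to 117 to 507 at chr2:168000000-168999999. Of 1380 windows 0 changed relative to the library in either direction (0%), and at an unadjusted p under 0.05 there were 16 higher and 52 lower (limma, smallest adjusted p = 0.103). The largest estimates were at chr14:111000000-111999999, with 0 of 63 calls undeaminated at 6 h and 33 of 121 at 12 h, and at chr6:9000000-9999999, with 7 of 44 and then 23 of 133 (adjusted p = 0.888 both). Pairs of libraries were compared over all windows, against the counting error of each pair, which is larger where a library is shallow or its level low. The mean squared difference in relative level, in units of the counting variance, was 1.43 to 1.62 for the 6 pairs of a 6 h and a 12 h library, 1.66 to 1.70 for the 3 pairs within 12 h and 1.40 for the pair within 6 h. With 1 call per read the values were 0.948 to 1.01, 0.975 to 1.08 and 0.913, where 1 is counting error alone. Fewer windows then reached the minimum, 561 to 563 per pair against 1371 to 1380, so the windows were not the same. Over genes the pairs across times gave 1.34 to 1.53, those within 12 h 1.55 to 1.65 and the pair within 6 h 1.36. These values are relative to counting error and do not rank the differences themselves.

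Windows ordered by 1 library differed little in the others at both times. The order carries the counting error of that library, which narrows the groups in the others, so the size of lasting differences is not measured. When windows were put in 5 groups of 276 by their relative level in 12 h A and then measured in the other 4 libraries, the lowest group was at 0.870 (6 h A), 0.977 (6 h B), 0.952 (12 h B) and 0.942 (12 h C). The highest was at 1.07, 1.08, 1.06 and 1.04. Genes put in 5 groups in the same way were more spread. Their lowest group was at 0.864, 0.788, 0.914 and 0.818 in these libraries, and their highest at 0.949, 1.13, 1.16 and 1.08.

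**Figure D5:**
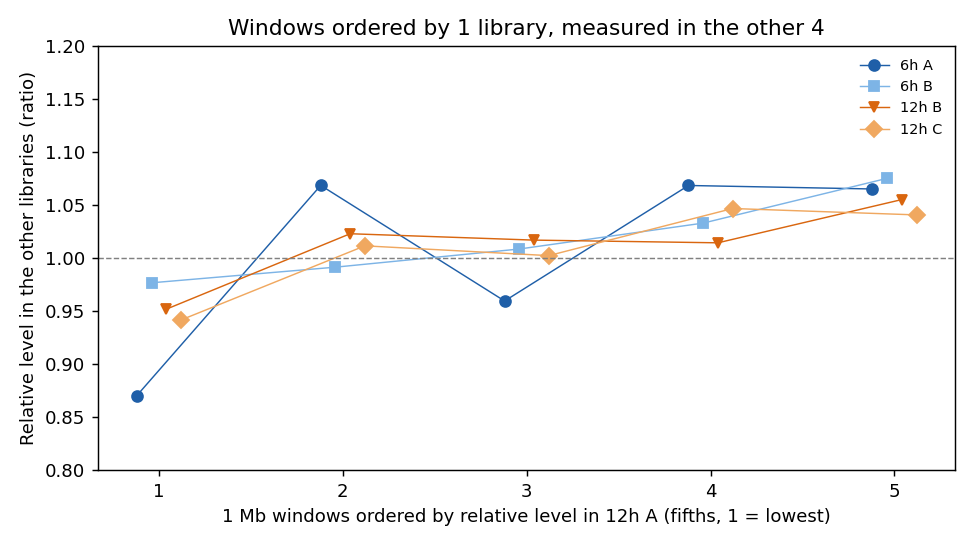
Relative level (ratio to the whole library, above background) in 4 libraries of windows of 1 Mb, placed in 5 groups from lowest to highest by a library not shown (12 h A), blue at 6 h and orange at 12 h. The lowest group lies between 0.870 and 0.977 and the highest between 1.04 and 1.08, at both times.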

How the data were processed

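CpG calls of mouse embryonic stem cells by APOBEC-coupled epigenetic sequencing were used from 5 libraries at 6 h and 12 h of doxycycline, with 3 untreated libraries as background. Libraries were made from 10 ng of DNA cut to about 300 bp and read over 150 bp, per the labels' protocols. The authors deposited the output of Bismark's methylation extractor 0.22.3, per the file headers, with 1 line per CpG and read. Its unit, as deposited, is a letter per call, Z for undeaminated and z for deaminated. Trim Galore, Bismark 0.22.3 and GRCm38 are named by the submitters' processing notes. No source used here gives settings or duplicate removal.

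Groups came from titles. Calls were placed on the gene spans and promoter windows of GRCm38.p6, which give no exons, and gene ends could not be told apart. Of 46566 calls in promoter windows 99.6% lay on a CpG of the window's sequence. Calls per library ran from 75023 to 485941 among the 5 libraries compared.

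The relative level was fitted with limma 3.58.1 in R 4.3.3 over 5 libraries without covariates. Weights came from calls and counting variance, and p-values were adjusted by Benjamini-Hochberg within a family at 0.05. Minimum calls in each library were 10 for genes, 20 for windows and 100 for lists. No p-value is given for a list as a whole. For patterns and pairs of calls on a read, the background was their own level at 0 h. Scripts were tested on simulated data. Named genes were the 10 largest changes on each side among those past the threshold without overlap, filled to 5, plus 3 members with most calls per list, the largest window on each side and the promoter window with most calls of each CpG class, chromosome 18 aside. Members, lists and tests were chosen with earlier results of these data known. Flanking bases, read patterns, pairs of calls with both undeaminated, odds ratios, differences between pairs of libraries and windows ordered by 1 library were added after seeing the data. Alternatives tried were each library left out, the replicate letter as a block, no background or each region's own, log2 and logit scales, no weights, 1 call per read, no high-copy windows, higher minimum calls and single runs. The log2 and logit scales were fitted without background subtraction. Of the 3 members chosen per list not all are printed. Lists by name prefix may hold genes of other families.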

Additional observations from a re-analysis of the deposited data

How the results depend on the processing

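Of 1255 values recomputed under an alternative, 1063 kept direction and side of the threshold (or stayed within the spread or within 1.5 times a count), 60 lost a call, 38 gained one, 59 moved and 35 changed sign. For those that changed, the cause was not tested unless stated. The library factor was 3.76 with no background subtracted, and the factors of reads with an undeaminated call were then 3.90, 3.48, 3.04, 2.64, 2.42, 2.03 and 2.01 for 1, 2, 3, 4-5, 6-7, 8-10 and 11 or more calls. That choice also called 3 read classes lower. It gave changes of -0.0808 for reads with 11 or more calls, -0.0231 for the mitochondrial genome, 0.00534 for protein-coding bodies, -0.0814 within 0.5 kb of gene ends and -0.0713 for promoters with 20 or more CpGs. With each region's own level at 0 h, reads with 2 calls changed by -0.00717 and calls within 0.5 kb by -0.0183, and 1 combination of end and read class, 1 chromosome (17) and 1 window were called higher and 2 windows lower.

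The log2 and logit scales subtracted no background, so they change 2 settings at once. On the log2 scale 0 read classes and 0 combinations were lower, 1 distance class was lower and 5 windows were higher. Reads with 4-5 calls were at -0.0764 (limma adjusted p = 0.179), with 11 or more at -0.42, the mitochondrial genome at -0.45, protein-coding bodies at 0.00698, 0.5 kb at -0.27 and promoters with 20 or more CpGs at -0.71. On the logit scale 2 read classes, 1 compartment (gene ends), 2 distance classes and 5 combinations were lower, and 1 combination and 1 gene were higher. Reads with 3, 4-5 and 11 or more calls were at 0.0162, -0.0335 (limma adjusted p = 0.260) and -0.461, the mitochondrial genome at -0.849, protein-coding bodies at 0.0305, 0.5 kb at -0.322 and promoters with 20 or more CpGs at -0.704. Without weights 1 read class was higher and 3 lower, 4 compartments higher and 1 lower, 1 chromosome higher, and 1 promoter class higher and 2 lower, with -0.00962 for reads with 6-7 calls and -0.0132 at 0.5 kb.

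With 1 call per read, and so fewer calls, 124 genes and 560 windows gained, 1 combination was lower and 1 chromosome higher. Reads with 2 and 6-7 calls were at -0.0108 and -0.0248, and promoters with 20 or more CpGs at -0.0495. With at least 20 calls 152 genes were tested as gained, and with at least 40 calls 683 windows, since fewer could be tested. Without high-copy windows 2 read classes were lower. Run 52 alone gave 0.161 for reads with 8-10 calls, run 53 alone -0.00831 for 2 calls, and run 54 alone 0 classes lower, -0.0532 for 4-5 calls (limma adjusted p = 0.671) and -0.00897 for 11 or more.

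Leaving out 6 h A or 6 h B leaves 1 library at 6 h, which is then assumed to vary like the 12 h libraries. Leaving out 1 library at a time, genes that gained ranged from 103 to 549, genes that lost from 0 to 1, genes lower from 0 to 8, read classes lower from 0 to 2, combinations lower from 0 to 3, patterns higher from 0 to 8 and lower from 0 to 7, pairs higher from 0 to 5, and the change of reads with 4-5 calls from -0.0974 to -0.0754. The change crossed 0 for reads with 2 calls (-0.00172 without 6 h A, up to 0.0357), gene ends (0.00185 without 12 h A, down to -0.0158), reads with 6-7 calls (-0.0639 without 6 h B, up to 0.0451), the pattern 3 of 6 (-0.0087 without 6 h B, up to 0.123) and promoters with 20 or more CpGs (-0.0596 without 6 h B, up to 0.0932). It also did for neighbours beyond 100 bp (0.368 without 6 h B, down to -1.04) and within 0.5 kb of gene ends (-0.0485 without 6 h B, up to 0.0152 without 12 h A).

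The replicate letters are shared between times, but no label says that they mark a shared culture or day. The differences A minus B of the 2 times had a correlation of 0.0403 over 1380 windows, a description over windows of the same libraries. With the replicate letter as a block in limma's fit, 2 read classes were lower, 3 compartments higher and 1 lower, and 0 combinations of end and read class lower, while 502 genes and 1349 windows gained. Depth limits all single genes and windows, and 6 h A, with 75023 calls, most of all. Calls of 1 read are not independent, so intervals and SE of regions with few reads may be too small.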
